A study of Mus musculus with 8 samples.

Results

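The genes described here are those of MHC class II antigen presentation: H2-Aa, H2-Ab1 and H2-Eb1, which encode chains of the class II molecules themselves, Cd74, H2-DMa and H2-DMb1, which act on those molecules during assembly and peptide loading, and Ciita, their shared transcriptional coactivator. These 7 genes were chosen by name, and all 7 had a row among the 55414 gene rows of the count table and passed the filter on low counts that left 14004 genes. They were measured by RNA-seq in red pulp macrophages sorted from the spleens of wild-type C57BL/6J mice, in 4 libraries taken 2 h after cecal ligation and puncture (CLP) and 4 taken 2 h after sham surgery. CLP is a model of abdominal sepsis, since bacteria leak out of the punctured gut, and the sham operation is the surgical control. All mice shared the genotype and the housing, and the labels give neither age nor sex. Whether different libraries are different mice is not stated either, and a p-value therefore reflects only how these samples spread, a spread that may be technical.

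A class II molecule is a pair of an alpha and a beta chain that displays peptides from endosomes to CD4+ T cells. The invariant chain, encoded by Cd74, binds the new pair and blocks its groove, endosomal proteases trim the invariant chain down to a short peptide called CLIP, and the DM molecule, a pair of H2-DMa and H2-DMb1 or H2-DMb2 chains, exchanges CLIP for other peptides. The class II genes are switched on together: a complex of RFX, CREB and NF-Y factors sits on the X and Y boxes of their promoters, and CIITA, which does not bind DNA by itself, docks on that complex. In the spleen B cells and dendritic cells carry much class II, so their markers were followed beside it.

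The promoters of 3 members are shown because these boxes are what the class II genes have in common. RefSeq windows (build GRCm38.p6, which differs from the build mm39 named for the counts) were matched by symbol for 4 members, H2-Aa, H2-Eb1, H2-DMb1 and H2-DMa, and that of Cd74 is not used here. The 130 bases upstream of the transcript start are printed in lower case, 5′ to 3′ on the gene's strand, for H2-Aa at chr17:34287824-34287953 (minus strand), H2-Eb1 at chr17:34305737-34305866 (plus strand) and H2-DMb1 at chr17:34153061-34153190 (plus strand). Capitals mark TGATTGG, the letters of the Y box, and upstream of it ACTGATG, letters of the X box in H2-Eb1 and H2-DMb1, or TGACGTC, a CREB-type site in H2-Aa whose copies on both strands overlap.
H2-Aa: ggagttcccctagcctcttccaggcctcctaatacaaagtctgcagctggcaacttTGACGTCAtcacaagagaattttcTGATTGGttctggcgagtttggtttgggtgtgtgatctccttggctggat
H2-Eb1: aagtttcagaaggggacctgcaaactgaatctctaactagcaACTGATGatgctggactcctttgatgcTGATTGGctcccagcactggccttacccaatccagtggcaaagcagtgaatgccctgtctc
H2-DMb1: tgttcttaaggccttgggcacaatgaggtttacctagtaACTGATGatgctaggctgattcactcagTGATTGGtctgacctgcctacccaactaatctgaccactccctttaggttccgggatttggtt

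The Y box letters began 50 bases upstream of the transcript start in H2-Aa, 61 in H2-Eb1 and 63 in H2-DMb1, and lay on the gene's strand in all 3. Searched on both strands, TGATTGG stood in 5.35% of the 32851 promoter windows of the same length, ACTGATG in 1.33% and TGACGTC in 2.19%, and the Y box letters with either other motif in 0.192%. Neither of the 2 windows listed for H2-DMa, at chr17:34122702-34122831 and chr17:34125388-34125517 (plus strand), held any of the 3 motifs. Any other transcript start of H2-DMa was not searched, so the gene as a whole is not shown to lack them. The Y box letters also stood in the windows of the other class II genes H2-Oa, H2-Ob, H2-DMb2 and H2-Eb2, of which H2-Eb2 alone held either other motif. The motifs were picked after these windows had been read, so the matches describe the printed sequence and show no binding.

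Class II transcripts were higher after CLP for 5 of the 7 members: the 3 chain genes, Cd74 and H2-DMb1. The increases were moderate, 1.43-fold for H2-DMb1 and up to 1.85-fold for H2-Eb1, whereas H2-DMa and Ciita did not pass the test and 0 members were lower. Over all genes tested 19.8% were called higher by the same rule, 23.5% lower and 43.3% in either direction. The values below are CPM, reads of a gene relative to the size of its library, scaled by TMM, a method that sets libraries to each other by the bulk of their genes, and the test was edgeR's quasi-likelihood test with Benjamini-Hochberg adjustment over all genes tested at a threshold of 0.05. Because these are bulk samples, a change in the number of class II-bearing cells and a change in RNA per cell cannot be told apart.

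Among the chain genes, H2-Eb1 encodes the beta chain of I-E. It was at 1098, 989, 725 and 1288 CPM in the 4 CLP libraries, against 622, 494, 637 and 468 CPM in the 4 Sham libraries. Each CLP library stood above each Sham library, with CLP replicate 3 nearest to them. The means were 1025 ± 235 CPM in CLP and 555 ± 86.5 CPM in Sham (SD, n = 4 each). On the log2 scale H2-Eb1 was 0.88 ± 0.17 (SE) higher after CLP, with an adjusted p of 0.00239 in edgeR. I-E is not formed in C57BL/6 mice, whose alpha chain gene H2-Ea is defective, and the row of that gene, H2-Ea-ps, held 3, 0, 1 and 0 reads in CLP and 0 reads in each Sham library.

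H2-Aa encodes the alpha chain of I-A, the class II molecule that C57BL/6 mice do form. It was at 1220.0, 1114, 768 and 1342 CPM in CLP, against 752, 557, 727 and 547 CPM in Sham. These groups did not overlap either, though CLP replicate 3 exceeded Sham replicate 1 by little. The means were 1111 ± 247 CPM in CLP and 646 ± 109 CPM in Sham (SD, n = 4 each; log2 fold change 0.78, SE 0.18, adjusted p = 0.00538 in edgeR). Its partner H2-Ab1, the beta chain of I-A, was at 1181, 1021, 754 and 1328 CPM in CLP, against 773, 577, 745 and 571 CPM in Sham. Here CLP replicate 3 fell between the Sham libraries. H2-Ab1 rose 1.61-fold (log2 fold change 0.68, SE 0.17, adjusted p = 0.0104 in edgeR).

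Cd74, the invariant chain, was at 4753, 4276, 2799 and 5171 CPM in CLP, against 3018, 2274, 2716 and 2246 CPM in Sham. The order of the libraries was that of H2-Ab1, with CLP replicate 3 again inside the Sham range. Its means were 4249.9 ± 1034 CPM in CLP and 2563 ± 372 CPM in Sham (SD, n = 4 each). Cd74 was thus 0.73 ± 0.18 (SE) higher on the log2 scale, with an adjusted p of 0.00877 in edgeR.

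H2-DMb1, the DM beta chain, was at 164, 145, 106 and 147 CPM in CLP, against 112, 89.1, 103 and 89.6 CPM in Sham. It rose by 0.51 ± 0.13 (SE) on the log2 scale (adjusted p = 0.00789 in edgeR), with CLP replicate 3 below the highest Sham library. H2-DMb2 is a near-identical copy, and reads could be split between them. That copy was at 8.80 ± 1.67 CPM in CLP and 7.65 ± 1.79 CPM in Sham, and with the counts of both summed the log2 fold change was 0.49 (adjusted p = 0.0102 in edgeR).

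The DM alpha chain gene H2-DMa was at 158, 153, 102 and 156 CPM in CLP, against 144, 104, 114 and 108 CPM in Sham. The lowest of all 8 libraries was CLP replicate 3, and the other 3 CLP libraries lay above all Sham libraries. H2-DMa did not pass (log2 fold change 0.28, SE 0.15, adjusted p = 0.17 in edgeR), but was called higher without CLP replicate 3 (0.41, adjusted p = 0.00811) or without Sham replicate 1 (0.43, adjusted p = 0.0489). Its annotated exons share 360 bases with those of Brd2 on the opposite strand. Brd2, a chromatin reader, was at 425 ± 31.1 CPM in CLP and 309 ± 12.97 CPM in Sham, and since the strand setting of the counting is not given, its part in the H2-DMa counts was not tested.

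Ciita was at 41.4, 39.2, 36.5 and 61.9 CPM in CLP, against 32.3, 34.5, 37.1 and 38.9 CPM in Sham. CLP replicate 4 stood well above the rest, and the other CLP libraries overlapped the Sham libraries or lay just above them. Ciita did not pass (log2 fold change 0.32, SE 0.15, adjusted p = 0.113 in edgeR), and without CLP replicate 4 its log2 fold change was 0.13 (adjusted p = 0.325). The gene has several promoters whose transcripts are summed in a gene count. Dexi on the opposite strand shares 329 exon bases with it and was at 3.42 ± 0.801 CPM in CLP and 4.57 ± 0.714 CPM in Sham.

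**Figure D1:**
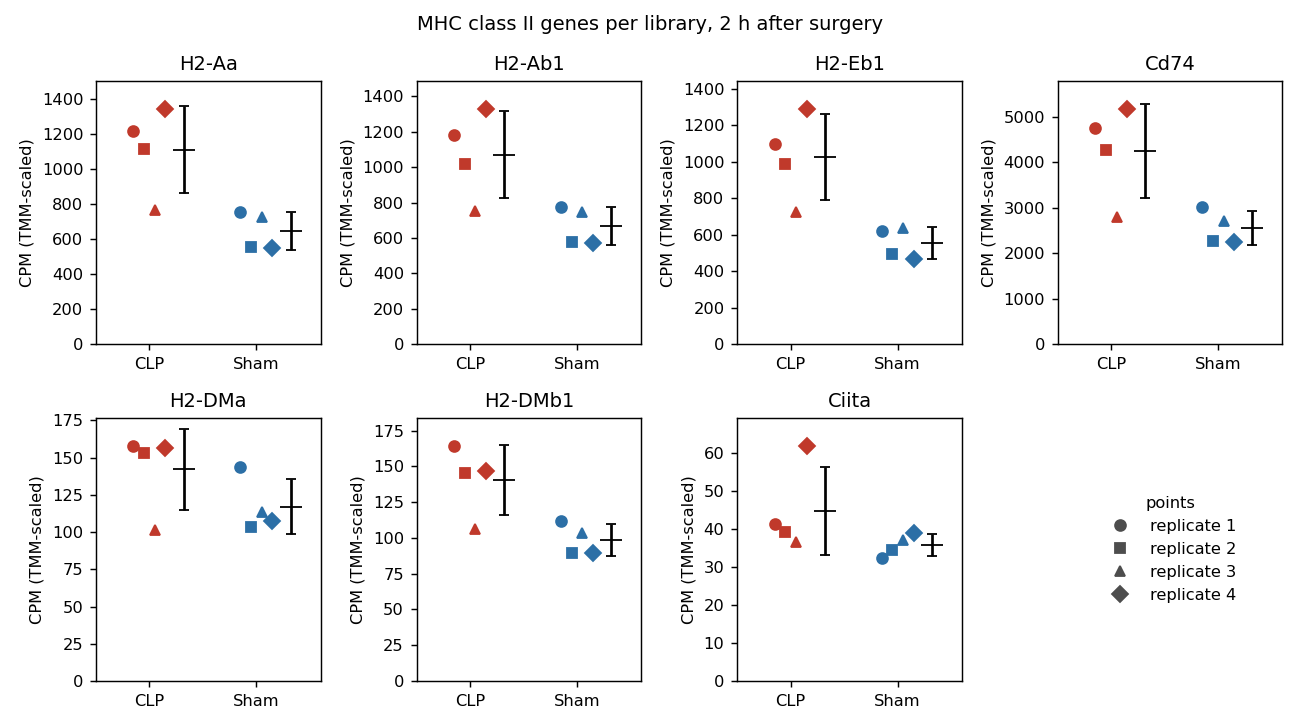
TMM-scaled CPM of the 7 MHC class II genes in each library, with CLP left of Sham in every panel; marker shapes give the replicate number, and the black bars give mean and SD of 4 libraries. H2-Aa and H2-Eb1 do not overlap between the groups, and CLP replicate 3 is the lowest CLP library for all 7 genes.

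The scaling of the libraries set how large these differences were. TMM factors were 0.873 to 0.915 in CLP and 1.08 to 1.15 in Sham, for total counts of 17333748 to 21409078 in CLP and 15392992 to 25665633 in Sham. The 7 members together took 0.765, 0.707, 0.479 and 0.828% of all reads in the CLP libraries, against 0.587, 0.462, 0.566 and 0.469% in the Sham libraries, so that CLP replicate 3 stood among the Sham libraries and the other CLP libraries above them. With CPM on library totals alone, log2 fold changes of all genes shifted by a median of -0.32, and the median over all genes tested was -0.37, against -0.05 with TMM scaling. H2-Eb1 (0.56, adjusted p = 0.0121 in edgeR) and H2-Aa (0.46, adjusted p = 0.0335) were still called higher with library totals, where 9.18% of genes were. Cd74 (0.41, adjusted p = 0.0606), H2-Ab1 (0.37, adjusted p = 0.0762) and H2-DMb1 (0.20, adjusted p = 0.184) were not, and H2-DMa (-0.04) and Ciita (0.00) were close to 0. Relative to the median of all genes, all 7 lay above it under both scalings: with TMM the members' median log2 fold change was 0.68, and their places among all genes ran between the 75.1 percentile for H2-DMa and the 91.8 percentile for H2-Eb1.

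**Figure D2:**
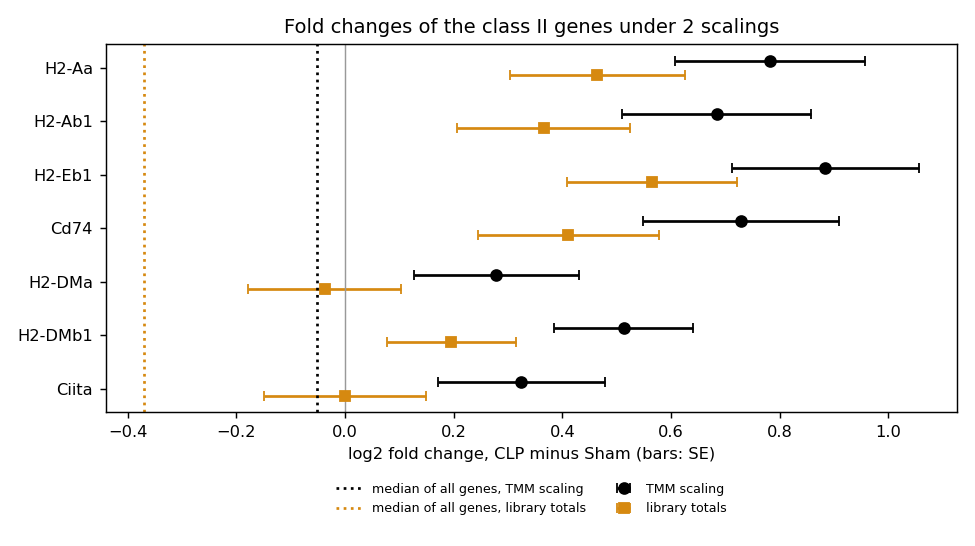
Log2 fold changes, CLP minus Sham, of the 7 genes with TMM scaling (black circles) and with library totals (orange squares); bars are SE and dotted lines the medians over all genes tested. With library totals the members moved left along with all genes, and H2-DMa and Ciita came to lie at -0.04 and 0.00.

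CLP replicate 3 decided how cleanly the groups separated. Every CLP library lay above every Sham library for 2 of the 7 members and below for 0, against 18.7% of all genes tested above and 22.8% below, or 41.5% in either direction. Without CLP replicate 3 this held for 7 of 7 members, where 22.2% of genes did so, and without Sham replicate 1 for 5, where 21.4% did so. On library totals it held for 0 members and 8.62% of genes. CLP replicate 3 was the lowest CLP library for all 7 members, CLP replicate 4 was the highest for 5 and CLP replicate 1 for the other 2. Sham replicate 1 was the highest Sham library for 5 members and Sham replicate 4 the lowest for 4. CLP replicate 3 and Sham replicate 1 were thus extreme in the members' own values, and need not be so for other genes. The counts of separated members without them are therefore not like for like with the shares over all genes. The 5 calls also depended on 1 covariate. They were kept with 1 surrogate variable (a hidden factor that the sva package estimates) taken from CPM, and all were lost with 1 taken from unscaled counts, where the value of H2-Eb1 was 0.66 (adjusted p = 0.0509 in edgeR) and 4 of the 7 members passed an unadjusted p of 0.05.

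Ratios between members within a library do not depend on any scaling. Reads were set against those of H2-Ab1, and the difference of the mean log2 ratio between the groups was tested with a two-sided exact permutation test over 70 assignments, with adjustment over the 6 ratios. H2-Eb1 had 0.930, 0.969, 0.962 and 0.970 reads per H2-Ab1 read in CLP, against 0.804, 0.856, 0.855 and 0.820 in Sham. No CLP library overlapped a Sham library in this ratio to H2-Ab1, CLP replicate 3 included. The log2 ratio was 0.20 higher in CLP (exact permutation p = 0.0286, the smallest this design allows, adjusted p = 0.0571).

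H2-Aa had 1.03, 1.09, 1.02 and 1.01 reads per H2-Ab1 read in CLP, against 0.973, 0.966, 0.976 and 0.959 in Sham, without overlap and 0.10 higher on the log2 scale (exact permutation p = 0.0286, adjusted p = 0.0571). The H2-DMa ratio went the other way, with 0.134, 0.150, 0.135 and 0.118 reads per H2-Ab1 read in CLP, against 0.186, 0.179, 0.153 and 0.189 in Sham. All CLP libraries were below all Sham libraries, and the difference was -0.40 (exact permutation p = 0.0286, adjusted p = 0.0571). None of these 3 passed the adjusted threshold. H2-Ab1 itself stood at the 88.9 percentile of log2 fold changes over all genes tested with TMM scaling. A lower ratio to H2-Ab1 in CLP is therefore what most genes would have. The difference was -0.17 for H2-DMb1 (exact permutation p = 0.114, adjusted p = 0.137), or -0.08 without CLP replicate 4 (adjusted p = 0.309), and -0.37 for Ciita (exact permutation p = 0.114, adjusted p = 0.137), with overlap between the groups for both. Cd74 had 4.02, 4.19, 3.71 and 3.89 reads per H2-Ab1 read in CLP, against 3.90, 3.94, 3.65 and 3.94 in Sham, a difference of 0.04 within the spread of the libraries (exact permutation p = 0.4, adjusted p = 0.4). The separation depended on the gene used as denominator. Against Cd74 reads the groups overlapped for H2-Eb1 (0.16 higher in CLP, exact permutation p = 0.0857, adjusted p = 0.171) and for H2-Aa (0.06 higher, exact permutation p = 0.143, adjusted p = 0.171). H2-DMa still lay lower in all CLP libraries (-0.43, exact permutation p = 0.0286, adjusted p = 0.171).

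**Figure D3:**
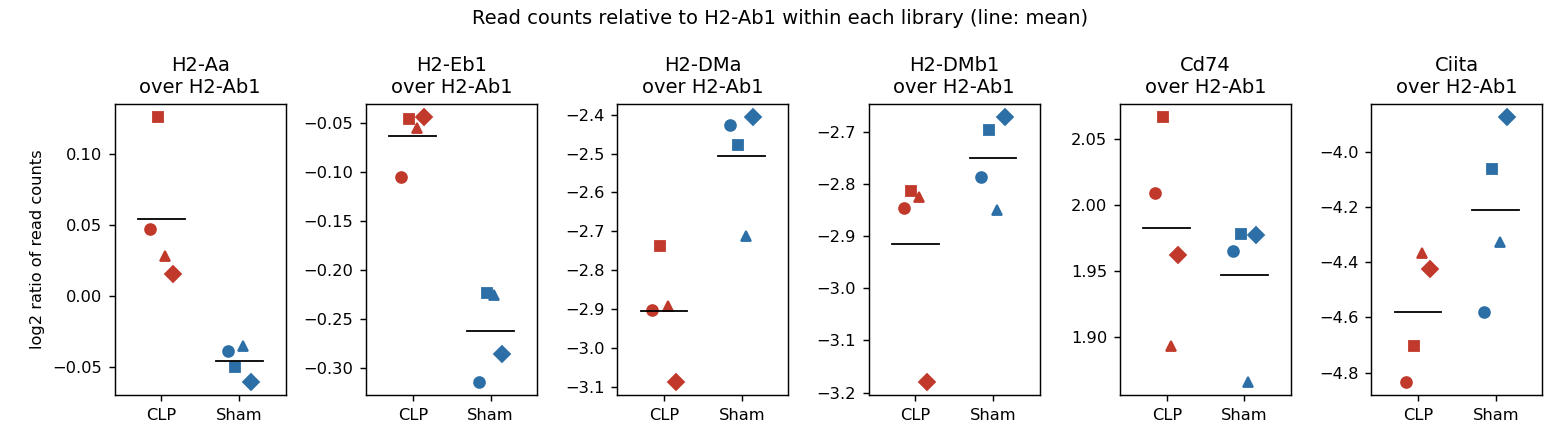
Log2 ratio of the reads of each member to those of H2-Ab1 in each library, CLP left of Sham; marker shapes give the replicate number as in the plot of CPM by library, and lines are group means. With this denominator H2-Aa and H2-Eb1 lie higher and H2-DMa lower in all CLP libraries than in all Sham libraries, while Cd74 overlaps.

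Within the groups the chain genes and Cd74 followed each other closely from library to library. Over the 8 libraries, with log2 CPM centred within each group, Pearson's r between pairs of H2-Aa, H2-Ab1, H2-Eb1 and Cd74 ran between 0.964 and 0.993, as a description of libraries that share their scaling. Against the mean profile of those 4 genes H2-DMb1 had r = 0.916, H2-DMa r = 0.8998 and Ciita r = 0.526. Among 9037 other named genes, all averaging 5 CPM or more, those with the most similar profile over the 8 libraries were Lnx2 (r = 0.990), H2-M3 (0.987), Papss2 (0.985), Abca2 (0.977), Zfp827 (0.974), Dip2b (0.972), C4b (0.966) and Chn2 (0.954). They did not share a direction between the groups. Lnx2, a ubiquitin ligase, was at 69.8 ± 14.3 CPM in CLP and 20.6 ± 2.43 CPM in Sham and was called higher (log2 fold change 1.76, adjusted p = 1.06e-05 in edgeR), whereas Zfp827, a zinc finger gene, was at 10.8 ± 0.556 CPM in CLP and 15.99 ± 0.347 CPM in Sham and was called lower (-0.56, adjusted p = 0.000992).

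Levels of different genes were compared per length, as TPM, the share of a gene in all transcripts of a library, computed with the union of annotated exons. Cd74 was the most abundant member at 8587 ± 1891 TPM in CLP and 6646 ± 759.9 TPM in Sham (SD, n = 4 each). H2-Eb1 followed at 1789 ± 363 TPM in CLP and 1245 ± 170.2 TPM in Sham, then H2-Ab1 at 1415 ± 287 TPM in CLP and 1129.8 ± 155 TPM in Sham, and H2-Aa at 993 ± 197 TPM in CLP and 740.4 ± 107 TPM in Sham. In CLP the ranges of neighbours among these chain genes overlapped, as those of H2-Eb1 and H2-Ab1 did in Sham, yet the order was kept in each of the 8 libraries. H2-Eb1 and H2-Ab1 changed places in all 8 when the longest transcript was used as length, so their order is not settled. H2-DMb1 (284 ± 44.1 TPM in CLP, 255 ± 21.5 TPM in Sham) and H2-DMa (140.2 ± 24.5 TPM in CLP, 148 ± 17.6 TPM in Sham) were next. Ciita was the lowest, at 15.9 ± 3.69 TPM in CLP and 16.4 ± 1.82 TPM in Sham.

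The other genes of the pathway were read from lists by role. The endosomal processing list holds the proteases that cut antigen and the invariant chain. Here 8 of 10 genes rose, where 19.8% of all genes tested did, and the other 2, Ctsd and Ctsh, did not pass. Between 6 and 9 of the list rose when 1 library was left out. The median log2 fold change was 0.35, beside -0.05 over all genes tested. Cathepsin L (Ctsl) was at 349 ± 46.0 CPM in CLP and 217 ± 18.1 CPM in Sham (log2 fold change 0.69, adjusted p = 0.000281 in edgeR). Sppl2a, the membrane protease that clears the last stump of the invariant chain, was at 467 ± 45.0 CPM in CLP and 319.7 ± 28.6 CPM in Sham (0.55, adjusted p = 0.000666). Ifi30, a lysosomal thiol reductase that unfolds antigens, was at 539 ± 51.4 CPM in CLP and 372 ± 39.4 CPM in Sham (0.54, adjusted p = 0.000989). Ctsb was the most abundant (9374 ± 274 CPM in CLP and 8059 ± 436 CPM in Sham, log2 fold change 0.22), and its call did not survive leaving out CLP replicate 1, 2 or 4, or Sham replicate 2 or 3 (highest adjusted p = 0.103 in edgeR). With library totals 4 of the 10 were higher and 1 lower, where 9.18% of all genes were higher and 46% lower.

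Of the 7 enhanceosome genes 3 fell and the other 4 did not pass. Their median log2 fold change was -0.06, beside -0.05 over all genes tested, of which 23.5% were called lower. Rfxap was at 3.54 ± 0.423 CPM in CLP and 6.66 ± 1.35 CPM in Sham (log2 fold change -0.91, adjusted p = 0.00278 in edgeR), and Rfxank at 5.57 ± 0.835 CPM in CLP and 9.04 ± 0.350 CPM in Sham (-0.70, adjusted p = 0.00283). Both encode subunits of RFX. Creb1 was at 84.8 ± 15.5 CPM in CLP and 108 ± 4.25 CPM in Sham (-0.34, adjusted p = 0.036), and lost its call when any library other than CLP replicate 3 or 4 was left out (highest adjusted p = 0.0975). Nfyb, named after its values were seen, lay higher without passing (0.45, adjusted p = 0.0575 in edgeR). It was called higher in 4 of the 8 fits that leave out 1 library. With library totals 6 of the 7 were lower, where 46% of all genes tested were, and their median of -0.38 stood beside -0.37 over all genes.

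In the list of the route by which interferon gamma switches on Ciita, 5 of 10 genes rose and 3 fell. Over all genes tested 19.8% were called higher and 23.5% lower. Socs1, a feedback inhibitor of JAK kinases, was at 40.2 ± 13.8 CPM in CLP and 7.40 ± 1.64 CPM in Sham (log2 fold change 2.44, adjusted p = 0.000128 in edgeR). The kinase gene Jak2 was at 312 ± 43.0 CPM in CLP and 112 ± 10.2 CPM in Sham (1.48, adjusted p = 2.73e-06), and Irf1, a transcription factor that acts on Ciita, at 709 ± 130.1 CPM in CLP and 271 ± 35.5 CPM in Sham (1.38, adjusted p = 2.23e-05). Jak1 was the most abundant and was at 774 ± 25.4 CPM in CLP and 557 ± 41.3 CPM in Sham, and Ifngr2, a receptor chain, was the other gene that rose (0.60, adjusted p = 0.00109). The 3 that fell, named after their values were seen, were Usf1 (-0.95, adjusted p = 8.07e-05), Irf8 (-0.35, adjusted p = 0.0288) and Irf2 (-0.21, adjusted p = 0.0474). Irf8 kept its call only without CLP replicate 1 or 4, and Irf2 only without Sham replicate 4 (highest adjusted p = 0.253), so that each fit without 1 library called 1 or 2 genes of the list lower.

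The next lists are read beside the 19.8% of all genes tested that were called higher and the 23.5% called lower. Among repressors of Ciita 1 of 5 rose, close to the share of all genes called higher, and the other 4 did not pass. This was Prdm1, which encodes Blimp-1, at 659 ± 85.4 CPM in CLP and 114 ± 34.7 CPM in Sham (log2 fold change 2.53, adjusted p = 5.61e-05 in edgeR). Of 4 genes of class II turnover 1 rose, Cd83, which protects surface class II from ubiquitination (1.86, adjusted p = 0.000415), while the ubiquitin ligase genes March1 (-0.25, adjusted p = 0.35) and March8 (-0.10, adjusted p = 0.492), named after their values were seen, did not pass. Without CLP replicate 3, March1 was called lower (adjusted p = 0.0234). Of 6 adaptor and endosome docking genes 4 rose and 1 fell, with Rab7, a late endosome GTPase, at 235 ± 6.22 CPM in CLP and 182 ± 10.6 CPM in Sham (0.37, adjusted p = 0.00104) and Vps33a, an endosome tethering factor, at 48.1 ± 1.08 CPM in CLP and 67.6 ± 4.04 CPM in Sham (-0.49, adjusted p = 0.000231). Between 2 and 4 of the list rose when 1 library was left out. With library totals 0 of these 6 were higher and 2 lower, where 9.18% of all genes were higher and 46% lower.

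Of the 4 further class II genes tested, H2-Oa and H2-Eb2 rose, where 19.8% of all genes tested did. H2-Oa, a chain of the DM inhibitor DO, was at 3.39 ± 0.486 CPM in CLP and 2.14 ± 0.594 CPM in Sham (log2 fold change 0.67, adjusted p = 0.0403 in edgeR), and H2-Eb2 at 4.88 ± 0.794 CPM in CLP and 2.69 ± 1.23 CPM in Sham (0.88, adjusted p = 0.0353). Both lie below 5 CPM and were named after their values were seen. Their calls were lost with library totals. H2-Oa kept its call in 2 of the 8 fits that leave out 1 library, with adjusted p up to 0.101, and H2-Eb2 in 3 of the 8, with adjusted p up to 0.0777. The DO beta chain gene H2-Ob did not pass (0.51, adjusted p = 0.0762), except without CLP replicate 1 (adjusted p = 0.014).

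**Figure D4:**
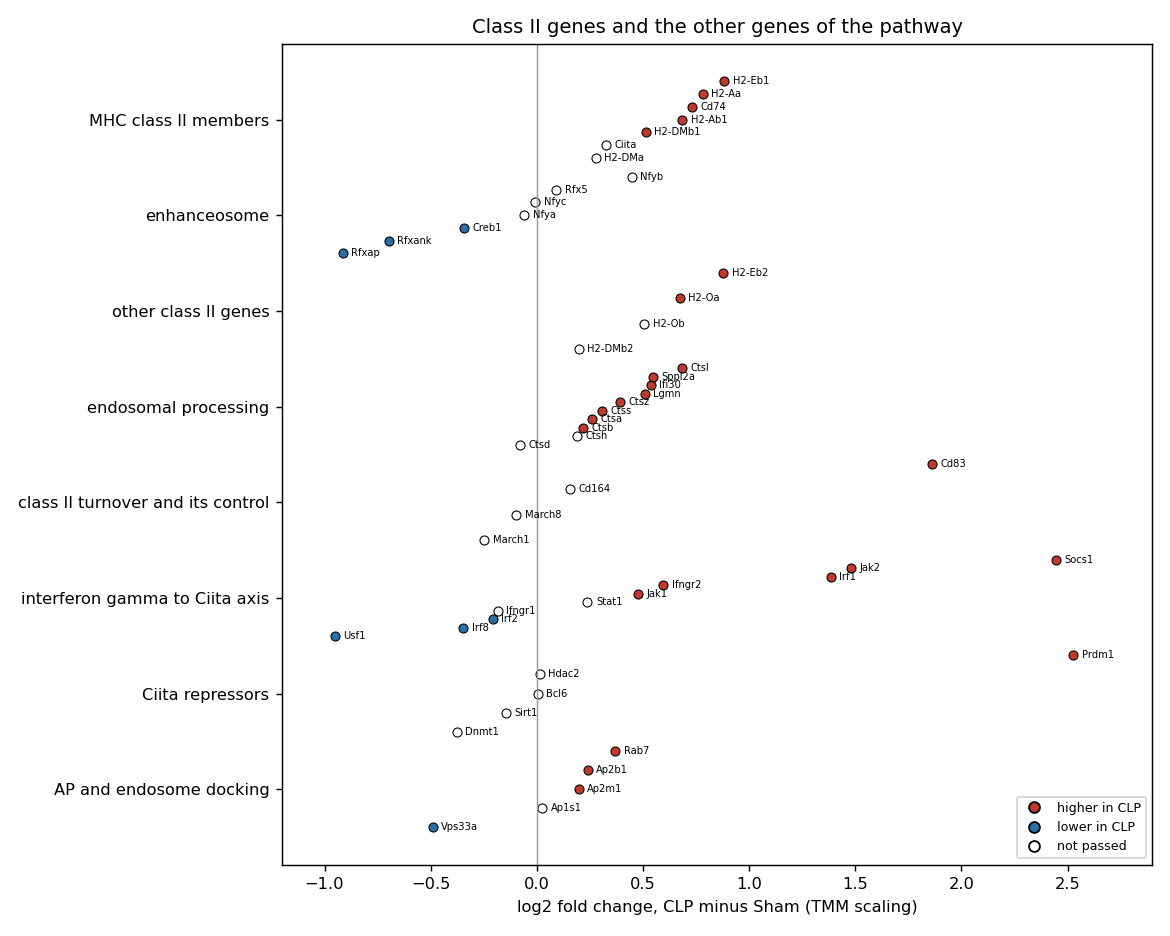
Log2 fold changes, CLP minus Sham with TMM scaling, of the 7 MHC class II genes (top row) and of other pathway genes by list; each point is a gene, filled red where called higher, blue where called lower and white where the test was not passed. Processing genes lie mostly right of 0, the enhanceosome genes Rfxap, Rfxank and Creb1 left of 0, and Prdm1 and Socs1 farthest right.

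Markers of other cell types were read in the same libraries. The defining markers of red pulp macrophages were abundant, with Vcam1 at 13524 CPM or more in each CLP library and 11387 CPM or more in each Sham library, and Spic at 1856 CPM or more in CLP and 1015 CPM or more in Sham. The 15 B cell markers summed to 140.2 to 219 CPM in CLP and 146 to 238 CPM in Sham. Of these, 1 of 15 was called, Cd79b, which was lower, where 43.3% of all genes tested were called in either direction. Cd79b was at 15.9 to 23.9 CPM in CLP and 29.6 to 34.0 CPM in Sham (log2 fold change -0.58, adjusted p = 0.00339 in edgeR). Other defining B cell markers were low, with medians of 3.03 CPM in CLP and 2.07 CPM in Sham for Cd79a and 2.92 CPM in CLP and 3.44 CPM in Sham for Ms4a1.

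The 11 markers of conventional dendritic cells summed to 969.95 to 1131 CPM in CLP and 856 to 947 CPM in Sham, without overlap. Of 10 tested members 3 were higher (Zbtb46, Ccr7 and Batf3) and 1 lower (Clec9a), where 19.8% of all genes tested were higher and 23.5% lower. The calls of Batf3 and Clec9a were lost in 6 and 5 of the 8 fits that leave out 1 library (highest adjusted p = 0.112 for Batf3 and 0.101 for Clec9a). With library totals the sums overlapped, at 879 to 1018 CPM in CLP and 986 to 1056 CPM in Sham. Under that scaling 1 member was higher and 1 lower, where 9.18% of all genes were higher and 46% lower. Most of this sum was Wdfy4, at a mean of 778 CPM over the 8 libraries. The defining marker Zbtb46 was at 21.7, 20.2, 13.4 and 24.6 CPM in CLP, against 11.9, 9.18, 13.2 and 13.7 CPM in Sham (log2 fold change 0.73, adjusted p = 0.00828 in edgeR), with CLP replicate 3 again the lowest of its group, and it was not called with library totals (0.41, adjusted p = 0.0807). Flt3 had medians of 6.97 CPM in CLP and 7.26 CPM in Sham and Xcr1 of 3.97 CPM in CLP and 5.13 CPM in Sham, and neither passed. Unlike Zbtb46, both were highest in CLP replicate 3 among the CLP libraries. Flt3 was at 11.8 CPM there, against 5.76 to 8.01 CPM in the other CLP libraries, and Xcr1 at 6.08 CPM, against 2.97 to 4.04 CPM. Cd209a was at or near 0, with 18 reads at most in a library. The part of dendritic cells in the class II values was not tested.

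CLP replicate 3, the CLP library with the lowest class II values, also differed in these markers. It had the lowest sum of red pulp macrophage markers in CLP (30740 CPM, against 34118 to 35213 CPM in the other CLP libraries) and the highest sums of B cell markers (219 CPM) and of T and NK cell markers (40.5 CPM) of the CLP libraries. The macrophage markers did not all go that way. Vcam1, the largest part of their sum, was lowest in CLP replicate 3 (13524 CPM, against 15683 to 17755 CPM). Spic was instead highest there (2628 CPM, against 1856 to 2416 CPM). The part of this makeup in its class II values was not tested. In Sham, replicate 1 had the highest sums of red pulp macrophage markers (32990.3 CPM) and of B cell markers (238 CPM), and the highest class II values for 5 of the 7 members.

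**Figure D5:**
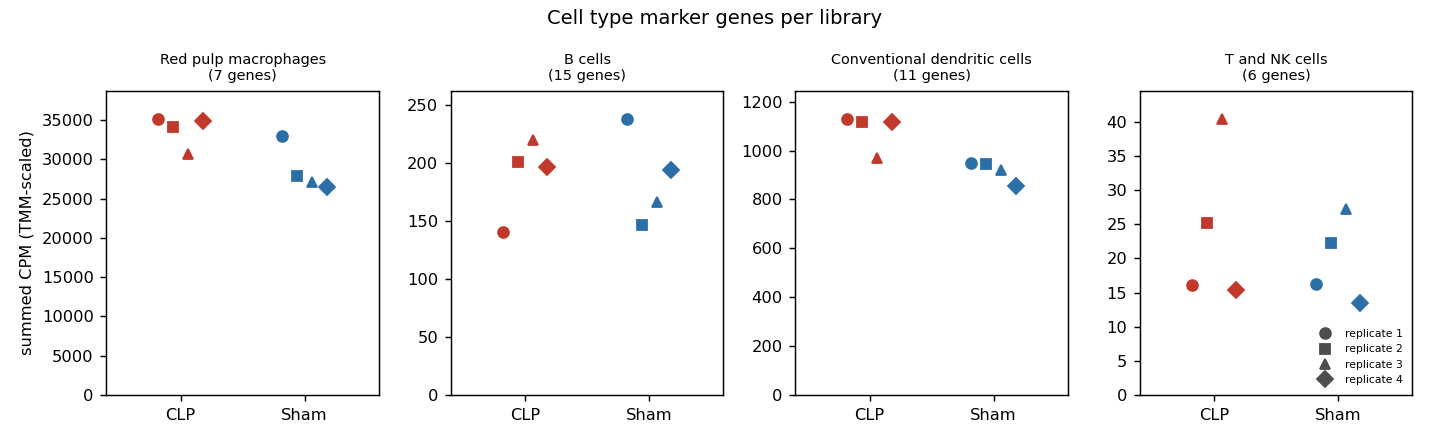
Summed TMM-scaled CPM of 4 marker lists in each library, CLP left of Sham, with marker shapes for the replicate number. CLP replicate 3 has the lowest sum of red pulp macrophage markers among CLP libraries, 30740 CPM, and the highest of T and NK cell markers, 40.5 CPM. Vcam1 is the largest part of the macrophage sum, while Spic alone was highest in CLP replicate 3.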

How the data were processed

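RNA-seq counts of sorted splenic red pulp macrophages were used, with groups and replicate numbers from the sample titles. The authors deposited raw read counts per Ensembl gene, 1 column per library; FastQC, STAR 2.7.10b, featureCounts, DESeq2 and mm39 are named without roles in the submitters' processing notes. Annotation release and strand setting: not given in the sources used here. Per the labels' protocols, libraries came from total RNA with a stranded TruSeq kit and were read on an Element AVITI.

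IDs were given symbols from GENCODE M21 (52081 of 55414 rows), also used for exon lengths (3281 rows, 0.181% to 0.896% of counts, had none and were left out of TPM). The test was the robust quasi-likelihood fit of edgeR 4.0.16 (R 4.3.3) on 2 groups without covariates, after filterByExpr and TMM, and was checked on simulated data. An SE was taken as the size of the log2 fold change over the root of its F. Ratios used counts with 0.5 added. At 1 CPM a gene rests on 15.1 to 27.6 reads per library. No 2 libraries of a group agreed within sampling noise (chi-square per degree of freedom 9.25 or more). Alternatives were DESeq2 1.42.0, limma-voom 3.58.1, other scalings and filters, sva 3.50.0, a replicate block and each library left out. Same-numbered libraries of both groups correlated at 0.04, -0.08, 0.38 and -0.38, so the numbers were not taken as pairs.

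Members, lists and the rule for named genes were chosen with earlier results of these data known. The rule named all members, from each pathway list the 3 largest called changes at a mean of 5 CPM or more and the most abundant gene, the defining markers, and the 8 genes of most similar profile. Values of some genes that this rule names, 1 of them in a plotted list, are not reported here.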

Additional observations from a re-analysis of the deposited data

Results flagged for a closer look

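Of 26 groups of 4 libraries examined (7 members and 6 ratios in CLP and Sham), 3 had a library far from the other 3, where chance gives about 1 in 20. H2-DMa in CLP replicate 3 was at 102 CPM, below 153 to 158 CPM in the other CLP libraries. The log2 ratio of H2-DMb1 to H2-Ab1 reads in CLP replicate 4 was -3.18, below the others of its group, and CLP replicate 4 held the highest H2-Ab1 value. The log2 ratio of Cd74 to H2-Ab1 reads in Sham replicate 3 was 1.87, the lowest of the Sham libraries.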

How the results depend on the processing

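Over 19 alternatives per member, H2-Aa and H2-Eb1 were called higher in 18 each, H2-DMb1 in 17, Cd74 and H2-Ab1 in 16 each, H2-DMa in 2 and Ciita in none (its adjusted p ran between 0.0527 and 0.998). Adjusted p reached 0.0891 for H2-Aa, 0.0509 for H2-Eb1, 0.184 for H2-DMb1, 0.116 for Cd74 and 0.156 for H2-Ab1. With library totals 1286 genes were higher and 6435 lower over the whole table, 2 members were higher, log2 fold changes were 0.37 for H2-Ab1, 0.41 for Cd74 and 0.20 for H2-DMb1 without a call, and H2-DMa (-0.038) and Ciita (-0.00055) changed sign. The lists then had 6 enhanceosome genes lower, 4 processing genes higher and 1 lower, 0 further class II genes higher, 2 turnover genes lower, 4 Ciita repressors lower, and 0 docking genes higher and 2 lower. Over all genes tested 9.18% were higher and 46% lower with library totals. With no filter on low counts 3 members were higher, and H2-Ab1 (0.66) and Cd74 (0.70) lost their calls. At a mean of 10 CPM or more 2189 genes were lower, among fewer genes tested. With 1 surrogate variable from unscaled counts, chosen after seeing the data, 1590 genes were higher and 1960 lower and 0 members higher by edgeR, with 0.61 for H2-Aa, 0.49 for H2-Ab1, 0.66 for H2-Eb1, 0.47 for H2-DMb1 and 0.60 for Cd74, while 4 members passed an unadjusted p of 0.05 and DESeq2 without it called 5. The cause of these shifts was not tested.

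Leaving out 1 library at a time gave 2310 to 2847 genes higher, 2639 to 3458 lower and 5 to 6 members higher. Log2 fold changes then ran between 0.68 and 0.93 for H2-Aa, 0.57 and 0.82 for H2-Ab1, 0.76 and 1.02 for H2-Eb1, 0.23 and 0.43 for H2-DMa, 0.43 and 0.63 for H2-DMb1, 0.62 and 0.89 for Cd74, and 0.13 and 0.41 for Ciita. The ratios to H2-Ab1 kept their sign, with none passing after adjustment. With the replicate number as a block 5 members were higher (H2-Eb1 0.87, H2-Aa 0.77, adjusted p = 0.0269 in edgeR), and 2799 genes higher and 3290 lower; differences within numbers cannot go below an exact sign-flip p of 0.125. The longest transcript as length put H2-Ab1 at rank 2 and H2-Eb1 at rank 3 in TPM. Depth limits genes below 5 CPM, such as H2-Oa and H2-Eb2.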

Other observations

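The remaining marker lists gave the following values. The 6 neutrophil markers summed to 9.67 to 25.7 CPM in CLP and 2.32 to 7.05 CPM in Sham. Both tested members, S100a8 and S100a9, were called higher in edgeR, where 19.8% of all genes tested were. The other neutrophil markers did not pass the filter on low counts, and the defining marker Ly6g held at most 1 read in a library. The 4 erythroid markers summed to 417 to 787 CPM in CLP and 132 to 358 CPM in Sham, with CLP replicate 3 and Sham replicate 4 highest in their groups. The 6 monocyte markers summed to 21.9 to 50.2 CPM in CLP and 28.5 to 37.3 CPM in Sham, and the 6 T and NK cell markers to 15.4 to 40.5 CPM in CLP and 13.4 to 27.2 CPM in Sham. The 5 plasmacytoid dendritic cell markers summed to 102 to 112 CPM in CLP and 93.5 to 109.6 CPM in Sham, mostly from Tcf4, with Siglech at 0.833 CPM or less in CLP and 0.658 CPM or less in Sham. Marco, Cd209b and Siglec1, which mark marginal zone and metallophilic macrophages, summed to 368 to 677 CPM in CLP and 305 to 374 CPM in Sham, again highest in CLP replicate 3. With library totals the neutrophil sums still did not overlap (8.59 to 23.3 CPM in CLP and 2.49 to 7.86 CPM in Sham), the erythroid sums did (364 to 713 CPM in CLP and 142 to 412 CPM in Sham), and the plasmacytoid dendritic cell sums lay lower in CLP (92.0 to 99.0 CPM in CLP and 107 to 122 CPM in Sham).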
